A study of Rattus norvegicus with 54 samples.

Results

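The genes that carry fatty acids into cardiac muscle and oxidise them in mitochondria were followed across the infarcted rat heart. The set held 40 genes, named from the textbook pathway and matched by symbol to the gene column of the count files, out of 40319 genes listed. It was chosen with earlier results of these data known. All 40 were found. They were read in RNA-seq libraries of the left ventricle of female athymic F344/NJcl-rnu/rnu rats, operated on at 8 weeks of age and sampled 1 week later. The sham group had the operation without ligation, the MI group had permanent ligation of the left anterior descending coronary artery, and the MI+Cell Sheet group had the same ligation followed by a sheet of human endothelial progenitor cells and smooth muscle cells laid on the epicardium. All 3 groups lacked a thymus, so the infarct and the sheet were studied in T cell-deficient hosts. Tissue from 3 places was sequenced for each heart, the infarct zone, the border zone and the remote zone, with the matching places in sham hearts, which gave 9 groups of 6 libraries. Per the labels these 6 were technical replicates, whereas the study describes separate animals. The p-values therefore measure the spread between libraries, which may in part be technical.

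The adult heart draws most of its ATP from long-chain fatty acids. Lipoprotein lipase frees them from circulating triglyceride, transporters and binding proteins carry them into the cell, acyl-CoA synthetases trap them as CoA esters, and the carnitine shuttle moves the acyl group across the mitochondrial membranes. Inside, the beta-oxidation cycle shortens the chain, and electrons leave through the electron transfer flavoprotein. The nuclear receptor PPARα drives transcription of much of this pathway, and malonyl-CoA brakes it at carnitine palmitoyltransferase 1. Failing and ischaemic hearts are known to lower these genes.

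The libraries held 12699204 to 23397754 counts on genes. Each level below is in CPM, the gene's count divided by its library's TMM-adjusted total and put on a common scale, and CPM compare a gene between libraries rather than 1 gene with another. The 10 cardiomyocyte markers (such as Tnnt2, Actc1, Myl2 and Ttn) were read as a sign of myocardium, with no cut-off set. They summed to 999, 1609 and 2678 CPM in infarct zone libraries 2, 3 and 4 of MI+Cell Sheet. Their summed level was 192 CPM in border zone library 1 of MI+Cell Sheet, against 8524 to 37300 CPM in the other 5 libraries of that group. Replicate 5 of sham also stood apart in all 3 zones. Its cardiomyocyte sum was 23380 to 33940 CPM against 61711 to 77393 CPM in the other shams, and the sum of 8 macrophage markers was 6813 to 11937 CPM against 289 to 699 CPM. Remote zone library 1 of MI+Cell Sheet had 24126 CPM of cardiomyocyte markers against 46896 to 65862 CPM in the other 5, and 42004 CPM of 7 fibroblast markers against 3326 to 11453 CPM. Counts of members called that change by over 1.5 times without one of these libraries are given both ways.

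The members together took a median 1.91% of gene counts in sham tissue of the infarct position, 0.400% in MI and 0.211% in MI+Cell Sheet. At the border the medians were 1.81%, 0.667% and 0.686%, and in the remote zone they were 1.94%, 1.10% and 1.76%. The median share in MI was higher farther from the infarct, and in the remote zone the share in MI+Cell Sheet was nearer to sham than to MI. In a whole-tissue library, fewer cardiomyocytes and less RNA of a gene per cardiomyocyte cannot be told apart.

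MI was first compared with sham in each zone, which asks how far the pathway fell after ligation. By edgeR's quasi-likelihood test with Benjamini-Hochberg adjustment over all genes tested, at an adjusted p under 0.05, 34 of 40 members fell and 2 rose in the infarct zone. Of all 15758 genes tested there, 49.9% were called, 27.2% lower and 22.7% higher. In the border zone 34 of 40 members fell and 2 rose, where 41.7% of all genes were called and 23.2% were lower. The 2 rises in each of these zones include Slc27a6, whose call adds no support for the reason given below. In the remote zone 24 of 39 members tested fell and 0 rose, where 25.8% of all genes were called and 14.2% were lower; Slc27a6 was too low to be tested there. With all 9 groups in a single fit, 5 members fell and 1 rose in the remote zone. The share of all genes called in that shared fit is not given here or below. From the infarct outwards, the median log2 fold change of the members was -1.87, -1.51 and -0.81, and that of all genes tested was -0.02, -0.02 and -0.04. With library size in place of TMM, which moved the median of all genes by 0.26, 0.19 and 0.13, the split of all genes called went from 3580 higher and 4286 lower to 5587 and 2736 in the infarct zone, from 2883 and 3634 to 4203 and 2350 at the border, and from 1782 and 2170 to 2597 and 1190 in the remote zone. The members called were then 33 lower and 4 higher, 34 and 3, and 18 and 1.

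**Figure D1:**
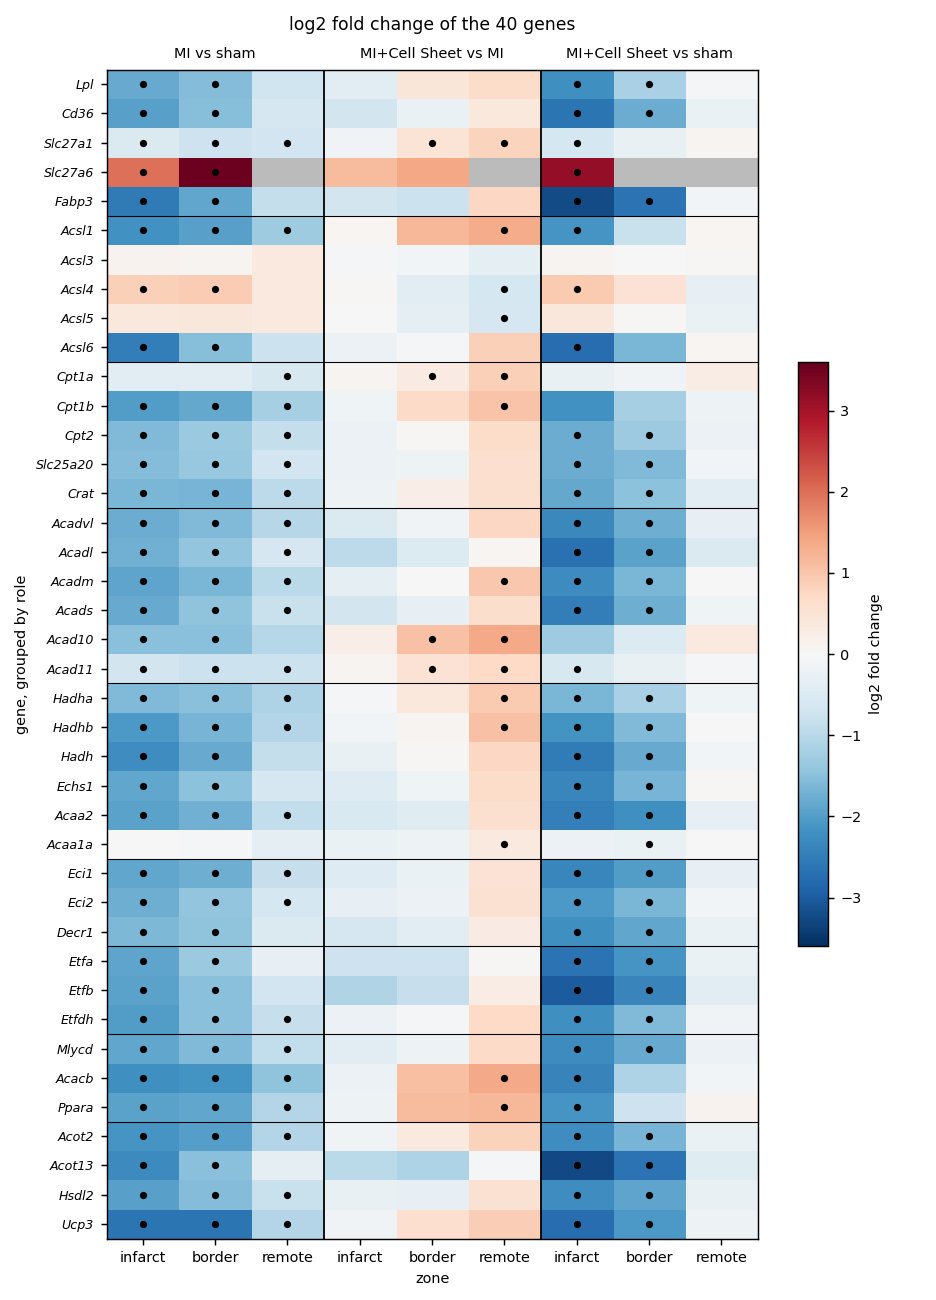
Heat map of log2 fold change for the 40 genes (rows, by role) in the 9 comparisons (columns), with a dot where edgeR's adjusted p was under 0.05 and grey where a gene was not tested. The MI versus sham columns are mostly below 0 with 36, 36 and 24 dots, and the columns for MI+Cell Sheet versus MI hold 0, 4 and 14 dots. Dots of Slc27a6 add no support, for the reason given in the text.

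At the entry step, Lpl, lipoprotein lipase, fell in the infarct zone (log2 fold change -1.83 ± 0.45, SE; adjusted p = 0.00647, edgeR) and at the border (-1.56 ± 0.42, adjusted p = 0.0132). Its infarct zone levels ran from 635 to 2755 CPM with a median of 2373 in sham, and from 238 to 1290 with a median of 413 in MI. The lowest sham library was replicate 5, and it alone overlapped the MI range. Remote zone Lpl stood at a median 2834 CPM in sham and 1574 in MI (log2 fold change -0.73 ± 0.26, adjusted p = 0.0558), which did not pass. Cd36, the fatty acid translocase, ran from 9.16 to 40.5 CPM (median 33.1) in sham and 3.92 to 15.5 (median 6.98) in MI of the infarct zone, where it fell (-1.97 ± 0.38, adjusted p = 0.00208). The rat genome carries close copies of Cd36, which can split its reads, so its level is uncertain. Fabp3, the heart fatty acid-binding protein, had infarct zone levels of 1172 to 4564 CPM (median 3885) in sham and 73.2 to 1829 (median 355) in MI. It fell there (-2.55 ± 0.70, adjusted p = 0.0104) and at the border (-1.87 ± 0.54, adjusted p = 0.0163), and its remote zone value was -0.85 ± 0.30 (adjusted p = 0.0503). Fabp3 overlaps Zcchc17 in the annotation, and whether the counting used strand is not given in the sources used here. The same limit holds for all 16 of the 40 members that overlap another gene span. Protein-coding neighbours include Pgls for Slc27a1, Zdhhc6 for Acsl5, Ackr4 for Acad11 and Cdpf1 for Ppara. Slc27a1, a fatty acid transport protein, fell in all 3 zones (-0.52, -0.73 and -0.69).

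A second transport protein, Slc27a6, was 1 of the 2 members that rose. Its levels were low throughout: at the border they were 0 to 0.383 CPM (median 0.238) in sham and 0.972 to 5.66 (median 2.19) in MI, with no overlap, which 6.73% of all genes showed in this direction. Infarct zone levels were 0.0727 to 0.784 CPM (median 0.417) in sham and 0.692 to 4.56 (median 1.38) in MI, and these overlapped. Slc27a6 passed the filter on low counts through the libraries where it was high, so its call adds no support, and no fold or p is given. The other was Acsl4, an acyl-CoA synthetase with a preference for arachidonic acid, which stood at 14.2 to 55.9 CPM (median 19.4) in sham and 34.8 to 60.5 (median 42.3) in MI of the infarct zone. Acsl4 rose by 0.86 ± 0.31 there (adjusted p = 0.0349) and by 0.92 ± 0.33 at the border (adjusted p = 0.041). The highest sham value in each zone was replicate 5, and without it the MI and sham libraries of Acsl4 and Acsl5 did not overlap in any zone, as for 23.6%, 21.4% and 13.8% of all genes in that direction.

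The 5 acyl-CoA synthetases, which activate fatty acids, did not move as a block. Acsl1, the main synthetase of the heart, had infarct zone levels of 264 to 867 CPM (median 758) in sham and 39.5 to 389 (median 95.2) in MI. It fell in every zone (-2.19 ± 0.57, -1.96 ± 0.45 and -1.28 ± 0.23; adjusted p = 0.00808, 0.00668 and 0.00227). Acsl6, another long-chain synthetase, had infarct zone levels of 10.9 to 46.2 CPM (median 39.7) in sham and 0.760 to 17.0 (median 4.13) in MI. It fell there (-2.50 ± 0.63, adjusted p = 0.00701) and at the border (-1.53 ± 0.50, adjusted p = 0.0285). Acsl3 and Acsl5 passed the test in no zone with all libraries, with values from 0.10 to 0.42, and Acsl5 was higher in all 3 without sham replicate 5 (0.75, 0.80 and 0.76). The median number of Acsl1 counts per Acsl4 count was 37.6 in sham and 2.25 in MI of the infarct zone, 37.2 and 4.75 at the border, and 53.0 and 12.1 in the remote zone. At the medians Acsl1 counts thus still outnumbered those of Acsl4 in MI. These ratios are of counts within a library and are not corrected for transcript length.

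In the carnitine shuttle, both forms of carnitine palmitoyltransferase 1 were measured. Cpt1b, the muscle form, was 135 to 547 CPM (median 431) in sham and 24.2 to 237 (median 74.0) in MI of the infarct zone. Its remote zone levels were 324 to 713 CPM (median 647) in sham and 213 to 392 (median 225) in MI, so that sham replicate 5 alone reached into the MI range. Cpt1b fell in each zone from the infarct outwards (-2.01 ± 0.55, -1.85 ± 0.51 and -1.19 ± 0.21; adjusted p = 0.0104, 0.014 and 0.00226). Cpt1a, the liver form, was 37.5 to 89.3 CPM (median 77.3) in sham and 49.0 to 61.0 (median 57.2) in MI of the infarct zone. It did not pass there (-0.38 ± 0.17, adjusted p = 0.0882) or at the border (-0.37 ± 0.17, adjusted p = 0.0853), and it fell in the remote zone (-0.59 ± 0.14, adjusted p = 0.00992). Without sham replicate 5 Cpt1a was lower in all 3 zones (-0.51 ± 0.10, -0.50 ± 0.09 and -0.69 ± 0.10; adjusted p = 0.000915, 0.00044 and 0.000106). A difference between Cpt1b and Cpt1a in their response was not tested. Cpt1b counts per Cpt1a count had medians of 5.54 in sham and 1.39 in MI of the infarct zone, and 6.70 and 4.30 in the remote zone. Cpt2, the inner-membrane transferase, Slc25a20, the carnitine-acylcarnitine carrier, and Crat, carnitine acetyltransferase, each fell in all 3 zones.

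**Figure D2:**
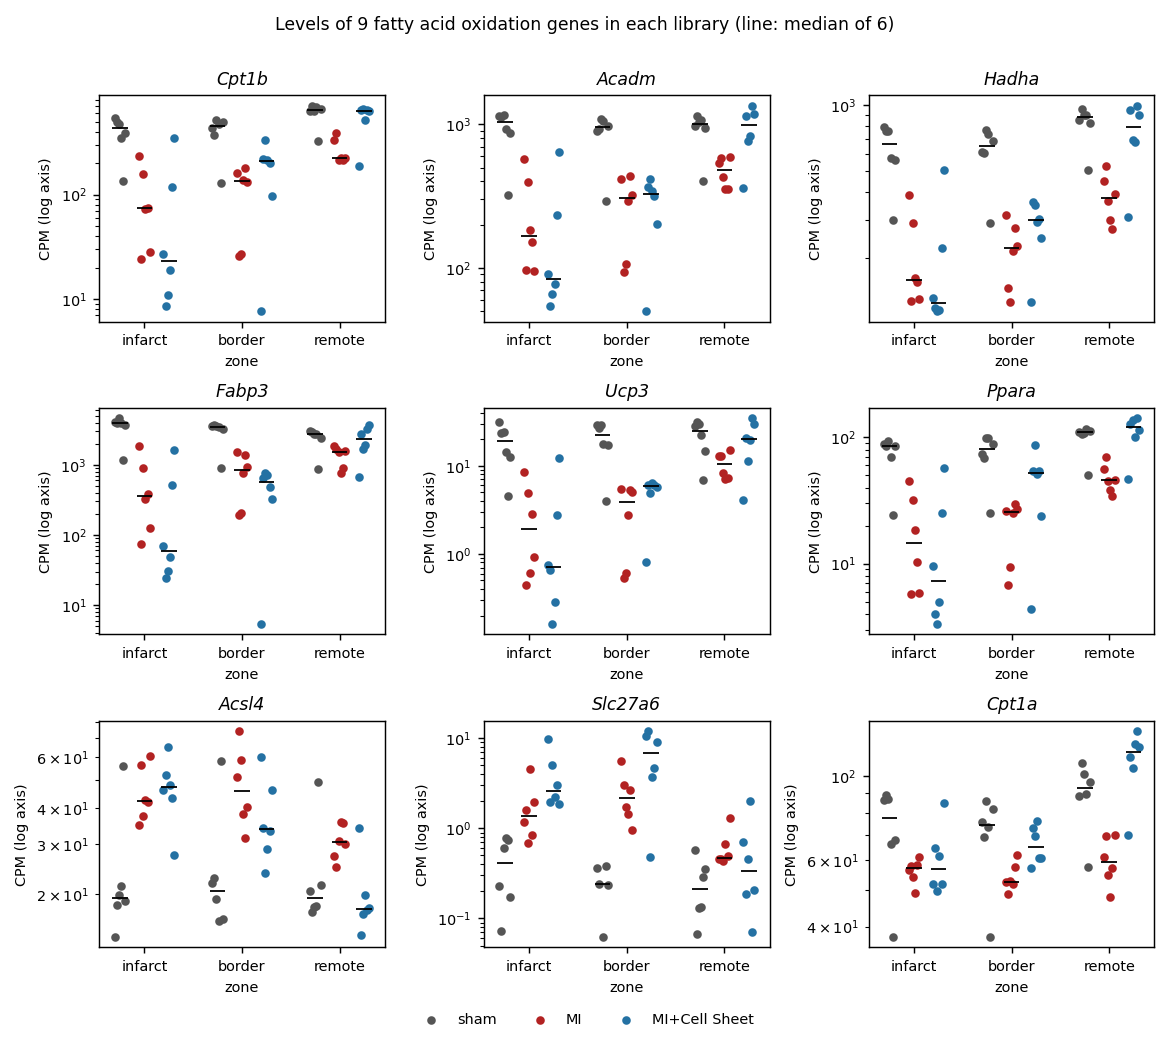
CPM on a log axis of 9 genes in each of the 54 libraries, grouped by zone and treatment, with a line at the median of each group of 6; a sham border library with a Slc27a6 value of 0 is not drawn. Cpt1b, Acadm and Hadha have lower medians in MI than in sham in all 3 zones, Acsl4 has higher ones, and sham replicate 5 lies away from the other shams.

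The beta-oxidation cycle itself fell nearly as a whole near the infarct. All 6 acyl-CoA dehydrogenases, which open the cycle, fell in the infarct and border zones, and 5 of 6 fell in the remote zone, with Acad10 at -1.02 ± 0.45 (adjusted p = 0.108). Acadm, the medium-chain enzyme, was 320 to 1158 CPM (median 1036) in sham and 94.7 to 573 (median 167) in MI of the infarct zone. It fell in all 3 zones (-1.89 ± 0.49, -1.64 ± 0.43 and -0.97 ± 0.23; adjusted p = 0.00775, 0.0109 and 0.00954). Of the 6 hydratases, hydroxyacyl dehydrogenases and thiolases, 5, 5 and 3 fell. Hadha, the alpha subunit of the trifunctional protein, had remote zone levels of 504 to 958 CPM (median 879) in sham and 271 to 527 (median 378) in MI. Hadha fell in all 3 zones (-1.59 ± 0.33, -1.49 ± 0.27 and -1.11 ± 0.18; adjusted p = 0.0028, 0.00226 and 0.00175), and so did its partner Hadhb (-2.06, -1.66 and -1.04). The member of this group that passed in no zone was Acaa1a, a thiolase of peroxisomes rather than mitochondria. Its infarct zone medians were 40.5 CPM in sham and 41.9 in MI (0.02 ± 0.08), and it overlaps Myd88 in the annotation. The 3 auxiliary enzymes for unsaturated chains (Eci1, Eci2 and Decr1) and the 3 genes that pass electrons to the respiratory chain (Etfa, Etfb and Etfdh) all fell in the infarct and border zones. Farther away, in remote tissue, 2 of the former and 1 of the latter did, with Etfa at -0.28 ± 0.22 (adjusted p = 0.377).

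Among the controls of the pathway, Ppara, the gene of PPARα, was 24.3 to 93.0 CPM (median 86.0) in sham and 5.76 to 45.5 (median 14.5) in MI of the infarct zone. Its remote zone range was 50.9 to 117 CPM (median 110) in sham and 34.5 to 69.8 (median 45.7) in MI. Ppara fell in all 3 zones (-1.93 ± 0.53, -1.86 ± 0.41 and -1.07 ± 0.21; adjusted p = 0.0105, 0.00546 and 0.00356). Acacb, the acetyl-CoA carboxylase that makes malonyl-CoA at mitochondria, and Mlycd, the decarboxylase that removes it, fell in all 3 zones as well. Acacb was the largest fall of the remote zone, from a median of 519 CPM (193 to 619) to 170 (100 to 285), a log2 fold change of -1.45 ± 0.29 (adjusted p = 0.00437). Ucp3, an uncoupling protein of the inner membrane, had the lowest fold change in both the infarct and border zones (-2.62 ± 0.71 and -2.64 ± 0.63; adjusted p = 0.01 and 0.0079). Its infarct zone levels were 4.58 to 31.7 CPM (median 19.1) in sham and 0.440 to 8.41 (median 1.90) in MI. Acot2, a mitochondrial thioesterase whose reads may be shared with its near copy Acot1, fell in all 3 zones (-2.11 ± 0.51, -1.97 ± 0.40 and -1.07 ± 0.23). Its border medians were 141 CPM in sham (41.6 to 164) and 33.3 in MI (13.1 to 55.5).

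Because these genes fell together, their promoters were searched for the direct repeat that PPARα binds with its RXR partner, AGGTCANAGGTCA, on both strands and allowing mismatches. RefSeq promoters (assembly GRCr8, 250 bases before to 50 after the start) were at hand for 35 of the 40 genes; Lpl, Cpt1b, Acadl, Acaa2 and Decr1 had none. A match with at most 2 mismatches stood in 7 of 35 members (20.0%) and in 3.77% of all 33469 promoters of this length. With at most 1 mismatch the shares were 2.86% and 0.439%, and with at most 3 they were 45.7% and 24.9%. The 45.7% counts 1 site for both Hadha and Hadhb, whose promoters overlap on opposite strands. The 3 promoters below are shown for the gene with the closest match and for the deepest falls of the remote and border zones among the 7, with the matching letters in capitals. A match is a description of the letters and not of binding.
Acadvl, chr10:55236656-55236955, minus strand, very long-chain acyl-CoA dehydrogenase: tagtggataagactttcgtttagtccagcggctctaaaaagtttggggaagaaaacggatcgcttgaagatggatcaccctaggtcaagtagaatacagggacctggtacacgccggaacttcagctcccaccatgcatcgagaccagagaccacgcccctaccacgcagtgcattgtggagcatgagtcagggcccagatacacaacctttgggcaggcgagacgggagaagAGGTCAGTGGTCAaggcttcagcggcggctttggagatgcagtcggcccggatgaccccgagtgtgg
Acacb, chr12:48138165-48138464, minus strand, acetyl-CoA carboxylase 2: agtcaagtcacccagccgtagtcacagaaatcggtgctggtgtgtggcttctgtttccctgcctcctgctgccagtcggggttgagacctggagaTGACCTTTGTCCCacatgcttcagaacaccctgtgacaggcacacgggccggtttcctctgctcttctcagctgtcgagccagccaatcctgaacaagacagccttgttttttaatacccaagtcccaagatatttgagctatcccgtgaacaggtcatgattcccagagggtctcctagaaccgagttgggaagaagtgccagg
Ucp3, chr1:164227660-164227959, plus strand, uncoupling protein 3: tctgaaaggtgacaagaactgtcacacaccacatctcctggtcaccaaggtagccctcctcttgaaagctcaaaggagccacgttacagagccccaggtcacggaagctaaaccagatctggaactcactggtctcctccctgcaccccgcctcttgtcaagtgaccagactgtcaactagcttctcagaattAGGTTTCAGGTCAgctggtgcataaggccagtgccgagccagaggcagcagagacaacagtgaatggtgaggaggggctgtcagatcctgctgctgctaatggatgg

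In Acadvl the match AGGTCAGTGGTCA had 1 mismatch and began 17 bases before the start. In Acacb the match TGACCTTTGTCCC read on the other strand and began 155 bases before the start, and in Ucp3 AGGTTTCAGGTCA began 57 bases before it. The other 4 were Crat with AGGACACCGGTCA, Echs1 with AGACCTCTGATCT, Etfa with TTACCTTTGCCCT and Slc25a20 with AGGTGAAAGGTCG. All 7 of these genes fell in the infarct and border zones, as did most members without a match.

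Cell markers moved with these falls. All 10 cardiomyocyte markers fell in the infarct and border zones and 4 of 10 fell in the remote zone, while 6, 7 and 6 of 7 fibroblast markers and 4, 5 and 2 of 8 macrophage markers rose. The summed cardiomyocyte level had a median of 66098 CPM in sham and 13687 in MI (3896 to 41111) of the infarct zone, 64054 and 24574 (5274 to 31554) at the border, and 63169 and 38898 (32141 to 48188) in the remote zone. The difference of mean log2 sums was -2.21, -1.72 and -0.54 (exact permutation test, 2-sided, adjusted p = 0.0241, 0.0325 and 0.0524, n = 6 and 6, Benjamini-Hochberg over 63 tests). The summed level of 7 adipocyte markers was higher in MI than in sham, by 2.25, 2.42 and 1.55 (same test, adjusted p = 0.0195, 0.0195 and 0.0325). Only 1 of these 7 genes could be tested singly, and the part of fat cells was not tested. Libraries with low cardiomyocyte sums also had low mean log2 CPM of the members.

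**Figure D3:**
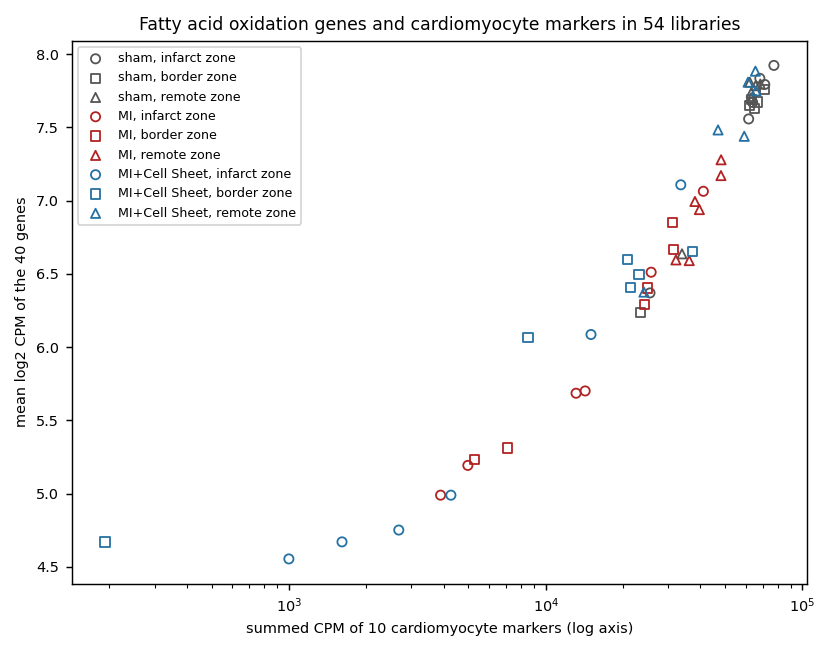
Mean log2 CPM of the 40 genes (vertical) against summed CPM of the 10 cardiomyocyte markers (horizontal, log axis) in the 54 libraries, coloured by treatment and shaped by zone. Libraries with low marker sums lie low on the vertical axis, down to 4.55 for an MI+Cell Sheet infarct library and 4.67 for the border library with a sum of 192 CPM, while most shams lie between 7.56 and 7.92.

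The same contrast was therefore also fitted with each library scaled to the summed counts of the 10 cardiomyocyte markers, which gives each gene relative to those markers. That scaling moved the median of all genes by 2.52, 1.94 and 0.45 in the 3 zones. On it 8 members were higher and 1 lower in the infarct zone, where 87.2% of all genes were called, 87% higher and 0.235% lower. The lower one was Fabp3 (-0.95 ± 0.37, adjusted p = 0.0244, edgeR). The 8 that were higher were Slc27a1, Slc27a6, Acsl3, Acsl4, Acsl5, Cpt1a, Acad11 and Acaa1a. As before, the call of Slc27a6 adds no support, here or at the border. The same 8 were higher at the border, where Ucp3 was the lower one (-1.22 ± 0.41, adjusted p = 0.0164), with 80.7% of all genes called, 80.6% higher and 0.16% lower. The other members, which fell on the CPM scale, did not pass relative to the markers in those zones.

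Of the 39 members tested in the remote zone, 10 were lower relative to the cardiomyocyte markers and Acsl3 was higher (0.91 ± 0.22, adjusted p = 0.0133), where 25.9% of all genes were called and 1.14% were lower. Acacb (-0.90 ± 0.18, adjusted p = 0.0063), Acsl1 (-0.74 ± 0.12, adjusted p = 0.0028), Cpt1b (-0.64 ± 0.11, adjusted p = 0.0036), Hadha (-0.57 ± 0.10, adjusted p = 0.0035) and Ppara (-0.51 ± 0.11, adjusted p = 0.0091) led them. Acot2, Hadhb, Acadvl, Crat and Cpt2 were also lower, with values from -0.50 to -0.32. Without sham replicate 5 the count was 20 lower and 3 higher, where 2.31% of all genes were lower. On the CPM scale, leaving out sham replicate 5 brought the remote zone falls from 24 to 36 of 39 and the rises from 0 to 2 (Acsl4 and Acsl5), where 46.5% of all genes were called; the counts in the infarct and border zones were then 35 lower and 3 higher in each (64.8% and 60.8% of all genes called). Without it, 34, 35 and 33 members had lower MI than sham libraries with no overlap, a pattern held by 21.8%, 21.6% and 14.9% of all genes. With it, 0 members did in any zone, against 5.39%, 4.95% and 4.41% of all genes.

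**Figure D4:**
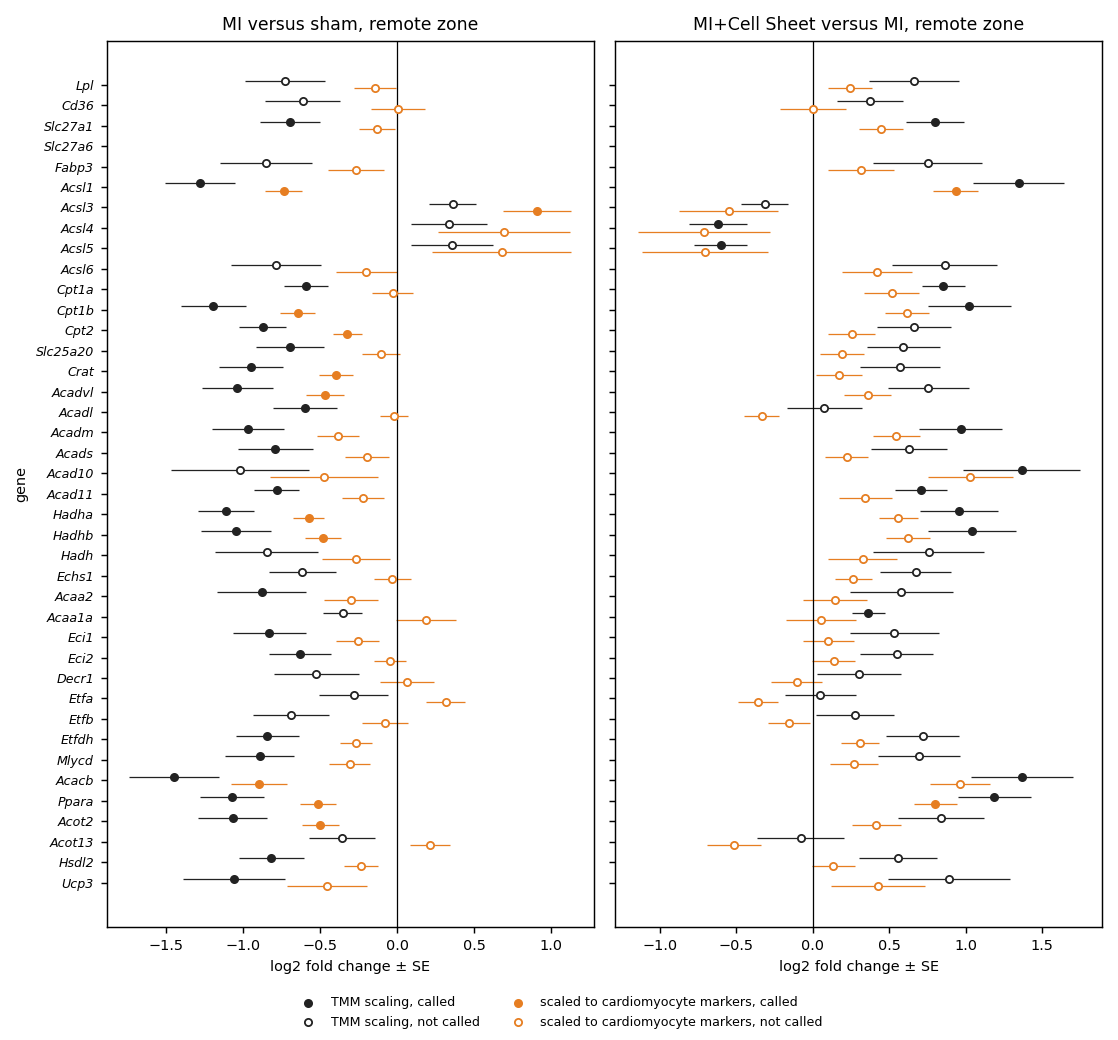
Remote zone log2 fold change with SE bars for the genes tested, under TMM scaling and under scaling to the cardiomyocyte markers, for MI versus sham and for MI+Cell Sheet versus MI. Acacb, Acsl1, Cpt1b and Hadha lie below 0 under both scalings in MI versus sham, and Acsl1 and Ppara lie above 0 under both in MI+Cell Sheet versus MI.

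Whether the fall was deeper near the infarct was tested as the difference of the MI effect between zones, with the heart as a block. Between the infarct and remote zones 25 of 40 members differed, 23 with a lower value in the infarct zone, where 28.9% of all genes were called and 15.3% were lower. The largest were Acot13, a thioesterase (-2.36 ± 0.50, adjusted p = 0.0044), Fabp3 (-2.31 ± 0.64, adjusted p = 0.0173), Acsl6 (-2.08 ± 0.53, adjusted p = 0.0112), Etfa (-1.97 ± 0.39, adjusted p = 0.0033) and Ucp3 (-1.91 ± 0.60, adjusted p = 0.0296). Acsl4 (0.56) and Acaa1a (0.37) differed the other way. Cpt1b, Acsl1, Acadm, Hadha, Ppara and Acacb were not among the 25. Between the border and remote zones edgeR called 0 members and 0% of genes. Unadjusted p was under 0.05 for 21 members and for 3995 of all 16475 genes tested. DESeq2 called 7 members, and its share of all genes is not given here. The block rests on the replicate number marking the heart across zones, which the labels do not state in words. Without the block, the 25 members called by edgeR between the infarct and remote zones became 0.

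MI+Cell Sheet was next compared with MI, which asks whether the pathway differed in hearts that carried the sheet. In the remote zone 12 of 39 members were higher and 2 lower by edgeR's test, where 17.1% of all genes were called, 10.3% higher and 6.79% lower. When all 9 groups shared a fit, 6 members were called, all higher. The median log2 difference of the members was 0.67 and that of all genes tested was 0.01. With library size in place of TMM, 11 members were higher and 1 lower, and the split of all genes called went from 1579 higher and 1044 lower to 1068 and 1129. In the border zone 4 of 40 were higher and 0 lower, where 18% of all genes were called with 8.47% higher and 9.48% lower, so the members' share was near the background, and 1 was called with all 9 groups in a fit. The split there went from 1379 and 1543 to 1631 and 1216 with library size, and the members called were 4 higher under both. In the infarct zone edgeR called 0 of 40 members and 0% of all genes. There 1 member had an unadjusted p under 0.05, as did 1341 of all 16196 genes. The lowest adjusted p of a member was 0.526, and DESeq2 called 0 members.

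The remote zone rises ran through several steps. Acsl1 had levels of 259 to 565 CPM (median 368) in MI and 322 to 1322 (median 1100) in MI+Cell Sheet, a rise of 1.35 ± 0.30 (adjusted p = 0.014). Ppara stood at 34.5 to 69.8 CPM (median 45.7) in MI and 47.0 to 141 (median 121) in MI+Cell Sheet, a rise of 1.19 ± 0.24 (adjusted p = 0.0104). In both genes the lowest MI+Cell Sheet library was replicate 1, and it alone reached the MI range. Cpt1b ran from 213 to 392 CPM (median 225) in MI and from 187 to 661 (median 639) in MI+Cell Sheet, with replicate 1 below every MI library. It rose by 1.02 ± 0.27 (adjusted p = 0.0258). Cpt1a, at 47.8 to 70.0 CPM (median 59.3) in MI and 70.0 to 131 (median 116) in MI+Cell Sheet, was the member whose libraries did not overlap, a pattern held by 3.14% of all genes in that direction; it rose by 0.85 ± 0.14 (adjusted p = 0.0066).

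The cycle enzymes that rose in the remote zone were Acadm (0.97 ± 0.27, adjusted p = 0.0304), Hadha (0.96 ± 0.25, adjusted p = 0.0252) and Hadhb (1.04 ± 0.29, adjusted p = 0.0287). Acadm medians were 485 CPM in MI (352 to 592) and 989 in MI+Cell Sheet (361 to 1353), and those of Hadha were 378 (271 to 527) and 794 (309 to 993). Acacb rose by 1.37 ± 0.33 (adjusted p = 0.0185), from a median of 170 CPM (100 to 285) to 501 (141 to 636). Acad10 and Acad11, acyl-CoA dehydrogenases whose part in cardiac oxidation is less well defined, rose by 1.37 ± 0.38 and 0.71 ± 0.17 (adjusted p = 0.0299 and 0.0174). Slc27a1 rose by 0.80 ± 0.19 and Acaa1a by 0.36 ± 0.11. The 2 members that were lower were both synthetases: Acsl4 (-0.62 ± 0.19, adjusted p = 0.0412), with a median of 30.3 CPM in MI (24.8 to 35.7) and 17.7 in MI+Cell Sheet (14.4 to 34.0), and Acsl5 (-0.60 ± 0.17, adjusted p = 0.0331), with 63.9 (51.1 to 76.0) and 37.8 (31.8 to 67.1). The highest MI+Cell Sheet library of Acsl4 was replicate 1. Acsl1 counts per Acsl4 count had a median of 12.1 in MI and 65.0 in MI+Cell Sheet of this zone.

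Other members had values above 0 that did not pass: Lpl at 0.66 ± 0.30 (adjusted p = 0.13), Fabp3 at 0.75 ± 0.36 (adjusted p = 0.151), Ucp3 at 0.89 ± 0.40 (adjusted p = 0.128) and Cd36 at 0.37 ± 0.21 (adjusted p = 0.229). Lpl levels were 1012 to 1973 CPM (median 1574) in MI and 815 to 3351 (median 2554) in MI+Cell Sheet. Fabp3 had 753 to 1820 CPM (median 1536) and 674 to 3743 (median 2331), and the groups overlapped in both. Etfa (0.05), Acadl (0.08) and Acot13 (-0.08) had values near 0, with SEs of 0.23, 0.24 and 0.29.

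These remote zone calls rested on particular libraries. Without replicate 1 of MI+Cell Sheet, 32 members were higher and 2 lower, where 41.6% of all genes were called; Cpt1b was then at 1.20 ± 0.17 and Ppara at 1.35 ± 0.16. Without MI+Cell Sheet replicate 2, 5 or 6, or MI replicate 3, 4 or 5, the count of members called was 6. The cardiomyocyte sum had a median of 38898 CPM in MI and 60362 in MI+Cell Sheet of the remote zone (difference of mean log2 sums 0.35, exact permutation test, adjusted p = 0.282, n = 6 and 6), 2 of its 10 markers rose, and the fibroblast sum had medians of 15639 and 5031 CPM (difference -0.92, adjusted p = 0.285, exact permutation test) with 1 of 7 markers called, lower. Macrophage sums had medians of 1860 CPM in MI and 456 in MI+Cell Sheet (difference -1.47, p = 0.0368, adjusted p = 0.0773, exact permutation test). Their part in the result was not tested beyond a fit scaled to the cardiomyocyte markers. In that fit Acsl1 (0.93 ± 0.15, adjusted p = 0.0255) and Ppara (0.80 ± 0.14, adjusted p = 0.0335) were higher and 0 members were lower, where 0.325% of all genes were called and 0.169% were higher. Unadjusted p was under 0.05 for 17 members and for 1999 of all 15374 genes tested. Without replicate 1 of MI+Cell Sheet 16 were higher and 6 lower on that scale, where 57.7% of all genes were called, 3.09% higher and 54.7% lower.

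At the border, the 4 members that rose were Acad10 (1.05 ± 0.28, adjusted p = 0.0232), Acad11 (0.52 ± 0.12, adjusted p = 0.00952), Slc27a1 (0.51 ± 0.15, adjusted p = 0.0321) and Cpt1a (0.29 ± 0.09, adjusted p = 0.0487). Acad10 levels were 15.9 to 40.6 CPM (median 19.2) in MI and 21.5 to 62.2 (median 50.2) in MI+Cell Sheet, those of Acad11 16.6 to 20.1 (median 17.2) and 20.0 to 31.5 (median 25.6), and those of Slc27a1 62.1 to 84.0 (median 78.0) and 71.3 to 142 (median 108). The groups overlapped in all 3. Acad11 and Slc27a1 are among the members that overlap another gene in the annotation. Acsl1 stood at 1.19 ± 0.43 (adjusted p = 0.0756), with a median of 187 CPM in MI (53.8 to 304) and 427 in MI+Cell Sheet (173 to 497), Ppara at 1.14 ± 0.56 (adjusted p = 0.184) and Acacb at 1.08 ± 0.69 (adjusted p = 0.307). Without replicate 1 of MI+Cell Sheet, Acsl1 (1.34 ± 0.41, adjusted p = 0.0432) and Ppara (1.39 ± 0.41, adjusted p = 0.0353) passed, Acsl5 was lower (-0.45 ± 0.13, adjusted p = 0.0316), and 18.8% of all genes were called. The count of 4 was 7 without that library, 1 without MI+Cell Sheet replicate 2 or 5 or MI replicate 3, and 2 without MI+Cell Sheet replicate 6 or MI replicate 2 or 4.

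Adipocyte markers varied widely in this group. Their sum over 7 genes was 19.8 to 1529 CPM (median 608) in MI+Cell Sheet against 38.6 to 279 (median 103) in MI of the border zone (difference of mean log2 sums 1.59, p = 0.184, adjusted p = 0.282, exact permutation test), and 2 of the 5 that could be tested rose. Replicate 3 lay below the MI range and replicate 4 within it. Adipoq, adiponectin, was at 182, 49.9, 0, 1.85, 118 and 233 CPM in replicates 1 to 6 of MI+Cell Sheet, and at 0 to 18.6 CPM in MI. Lpl and Acsl1 are also expressed in fat, and the part of these cells in the border zone values was not tested. Border library 1, with almost no cardiomyocyte markers, had 1235 CPM of adipocyte markers and still 173 CPM of Acsl1, but 7.61 CPM of Cpt1b and 5.33 CPM of Fabp3. Scaled to the cardiomyocyte markers, edgeR called 0 members at the border. Unadjusted p was under 0.05 for 14 members and for 11359 of all 16272 genes tested. That fit divides border library 1 by its very low marker sum: the median of the members was 2.5 with it and -0.06 without it, when the lowest adjusted p was 0.779. In the infarct zone the same scaling called 0 members, and unadjusted p was under 0.05 for 2 members and for 6132 of all 16196 genes. In both zones 0% of all genes were called.

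In the infarct zone the MI+Cell Sheet libraries spread widely. Cpt1b ran from 8.52 to 350 CPM (median 22.9) in MI+Cell Sheet and from 24.2 to 237 (median 74.0) in MI, a difference of -0.15 ± 0.92 (adjusted p = 0.976). Fabp3 ran from 24.2 to 1612 CPM (median 58.6) against 73.2 to 1829 (median 355), a difference of -0.66 ± 1.10 (adjusted p = 0.901). Replicate 6 gave the highest MI+Cell Sheet value of both genes, and its cardiomyocyte sum was 33580 CPM against 999 to 15010 in the other 5. With SEs of 0.92 and 1.10 on the log2 scale, differences of the size seen in the remote zone were not detectable here for these genes. The difference of the MI+Cell Sheet effect from that in the remote zone was called by edgeR for 0 members in the infarct zone and 0 at the border. Unadjusted p was under 0.05 for 20 members and 4190 of all 16902 genes in the infarct zone. At the border it was so for 4 members and 3430 of 16784 genes. DESeq2 called 8 and 2 members, and its share of all genes is not given here. Without replicate 1 of MI+Cell Sheet, 6 members differed between the infarct and remote zones, 5 of them lower in the infarct zone, where 11.7% of all genes were called, and 0 between the border and remote zones.

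MI+Cell Sheet was last compared with sham, which shares its libraries with the other contrasts. In the infarct zone 32 of 40 members were lower and 2 higher, where 57.9% of all genes were called, 29.2% lower and 28.6% higher. The 2 higher include Slc27a6, whose call adds no support. At the border 27 of 39 were lower and 0 higher, where 43.6% were called, 23.2% lower and 20.4% higher. With library size the splits of all genes went from 4492 higher and 4586 lower to 6232 and 3182, and from 3254 and 3701 to 5299 and 2156. Near the infarct, then, the sheet-bearing hearts stood below sham in most members, with medians of -2.21 and -1.64 on the log2 scale. For remote tissue edgeR called 0 of 39 members, where 0.0066% of all genes were called; 0 members had an unadjusted p under 0.05, DESeq2 called 0, and the lowest adjusted p was 0.564. The median of the members was -0.16, with Cpt1b at -0.17 ± 0.27, Ppara at 0.11 ± 0.25, Hadhb at -0.01 ± 0.30 and Hadha at -0.16 ± 0.25. A missed threshold with SEs of this size does not show equal levels. The MI group was lower than sham in the same zone for these genes.

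Beyond the 40 members, 68 other genes of fatty acid handling were listed and 65 could be tested in MI versus sham. In the infarct zone 45 fell and 5 rose (76.9% called, against 49.9% of all genes), at the border 44 and 5 (75.4% against 41.7%), and in the remote zone 37 and 1 (58.5% against 25.8%). The 13 genes of mitochondrial oxidation outside the member set fell in 13, 12 and 9 cases. The deepest falls of the infarct zone were Rxrg, a partner receptor of PPARα (-2.46 ± 0.62), Pdk4, the kinase that shuts off pyruvate dehydrogenase when fat is burned (-2.43 ± 0.53), and Esrrb, an oestrogen-related receptor (-2.24 ± 0.49). At the border they were Pdk4 (-2.05), Rxrg (-2.02) and Pdk2 (-1.83), and in the remote zone Acsf2, an acyl-CoA synthetase (-1.39), Pdk4 (-1.36) and Bdh1, a ketone body dehydrogenase (-1.29). The rises were led by Angptl4, a secreted inhibitor of lipoprotein lipase, at 2.90 ± 0.41 in the infarct zone and 3.30 ± 0.55 at the border. Slc27a3, an acyl-CoA synthetase of the transporter family, rose by 1.77 and 1.11, and Crot, which hands medium-chain acyl groups from peroxisomes to carnitine, rose in all 3 zones, by 0.94, 0.83 and 0.76.

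In MI+Cell Sheet versus MI, 28 of 65 of these other genes were higher in the remote zone and 1 was lower (44.6% called, against 17.1% of all genes), with 6 of 13 for mitochondrial oxidation, 6 of 12 for peroxisomal oxidation and 9 of 20 for regulators. Their values scaled to the cardiomyocyte markers, or with a library left out, are not given here. Among the members, 12 were higher in that zone under TMM and 2 on the marker scale. At the border 6 of 66 were higher and 3 lower (13.6% called, below the 18% of all genes), and in the infarct zone edgeR called 0 of 66, where 0% of all genes were called.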

How the data were processed

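The authors prepared polyA RNA-seq libraries and deposited raw counts of reads per gene and library. Per the labels, their notes name the mRatBN7.2 build and DESeq2; the counter and strand setting are not given in the sources used here. Each file ends in 5 summary lines (16.985% to 42.805% of its total), which were left out. Totals on genes ran from 12699204 to 23397754, and this sampling depth limits precision for genes near 0 CPM. No 2 libraries of a group were identical (135 pairs, chi-square per degree of freedom 7.97 to 539).

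Groups were taken from the sample labels. Genes kept by filterByExpr were tested with edgeR 4.0.16 (R 4.3.3, TMM, quasi-likelihood F test, Benjamini-Hochberg over all genes tested, threshold 0.05) in each zone, using the libraries of the 2 groups compared. SE is the absolute log2 fold change divided by the square root of F. The alternative scaling replaced TMM by the summed counts of 10 cardiomyocyte markers. Zone differences were interaction terms with the heart as a block. Marker sums were compared by exact permutation (SciPy 1.17.1) on log2 (CPM + 0.1). Counts were simulated from the mean levels of sham tissue of the infarct position and the real library sizes, with a dispersion of 0.1 for every gene. They held no effect of the heart and no outlying library, so the rates below need not hold for the real libraries. Of 200 changed genes 154 were called (100 of 100 changed by 2 on the log2 scale and 54 of 100 changed by 1), with 4.94% false calls. The marker scaling recovered 146 (0.68% false). The zone difference recovered 117 (96 of 100 changed by 2 and 21 of 100 changed by 1), with 7.87% false calls, above the threshold. Same-numbered libraries did not deviate together (correlations from -0.68 to 0.55), so replicate numbers were not used to pair groups. DESeq2 1.42.0, other filters, scalings and left-out libraries were tried.

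The 40 members, the marker lists and the 68 other pathway genes were chosen with earlier results of these data known. Values per library are given for Lpl, Cd36, Fabp3, Acsl1, Cpt1a, Cpt1b, Acadm, Hadha, Ppara and Ucp3 and for the 3 largest called rises and falls of MI versus sham and of MI+Cell Sheet versus MI in each zone. Acaa1a, Acsl3, the isoform ratios and single markers were added after their values were seen. Of the other pathway genes the 3 largest rises and falls in MI versus sham are named.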

Additional observations from a re-analysis of the deposited data

Results flagged for a closer look

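One difference between zones was called by its own test: the MI effect differed between the infarct and remote zones in 25 of the 40 members, where 28.9% of all genes were called. That call rests on the heart as a block and was lost without it. The difference was not tested relative to the cardiomyocyte markers. The other flagged results are libraries that lay far from the other 5 of their group by Dixon's criterion, at 58 of the 180 groups and measures examined. The criterion's rate of about 1 in 20 holds for independent, normally distributed values. These measures reuse the same libraries, so that rate does not apply to them. Of the 58, 37 were replicate 5 of sham.

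For replicate 5 of sham, the mean log2 CPM of the members was 6.37 in the infarct position, 6.23 at the border and 6.64 in the remote zone. In that order its levels were low for Lpl (635, 531 and 951 CPM), Fabp3 (1172, 912 and 859 CPM), Acadm (320, 293 and 400.0 CPM) and Acsl6 (10.9, 7.65 and 10.8 CPM), and high for Acsl4 (55.9, 58.5 and 49.3 CPM) and Acsl5 (123, 129 and 109 CPM). At the border and in the remote zone it was low for Cpt1b (128 and 324 CPM), Hadha (290 and 504 CPM), Acot2 (41.6 and 71.8 CPM) and Acad11 (18.5 and 22.6 CPM). At the border alone it was low for Cd36 (6.36 CPM) and Cpt1a (37.6 CPM), and in the remote zone alone for Acsl1 (494 CPM) and Acacb (193 CPM). In the infarct position and the remote zone it was low for Ppara (24.3 and 50.9 CPM) and Slc27a1 (59.2 and 83.2 CPM). Its macrophage marker sums (6813 to 11937 CPM) were above those of the other shams and its cardiomyocyte sums below.

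Infarct zone library 6 of MI+Cell Sheet was high for Cd36 (13.4 CPM), Fabp3 (1612 CPM), Acsl1 (596 CPM), Cpt1b (350 CPM), Acadm (641 CPM), Hadha (505 CPM), Ucp3 (12.2 CPM), Acacb (236 CPM), Acot2 (87.0 CPM) and Acad10 (82.8 CPM), and low for Acsl5 (44.4 CPM). Its cardiomyocyte sum was 33580 CPM.

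Replicate 1 of MI+Cell Sheet was low in the mean log2 CPM of the members at the border (4.67) and in the remote zone (6.37), in Ucp3 at the border (0.812 CPM), and in Cpt1b (187 CPM) and Slc27a1 (95.5 CPM) of the remote zone, where it was high in Acsl4 (34.0 CPM). Single high values were Slc27a6 in remote zone library 4 of MI+Cell Sheet (2.02 CPM), infarct zone library 4 of MI (4.56 CPM) and remote zone library 6 of MI (1.30 CPM), and Acad11 in border library 1 of MI (20.1 CPM).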

How the results depend on the processing

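In MI versus sham, the count of members called in the infarct and border zones stayed within 1.5 times the main 36 under DESeq2, other filters, library size without TMM, all groups in a single fit and a replicate block (36 and 24). In the remote zone it was 24, with 31 under the block and 6 when all 9 groups shared a fit. MI+Cell Sheet versus MI moved more. The border count of 4 became 1 with the replicate block and 1 with all groups in a fit. The remote count of 14 became 0 with the block and 6 with all groups in a fit; the cause was not tested. Scaled to the cardiomyocyte markers, the block gave 3 at the border (MI versus sham) and 0 in the remote zone (MI+Cell Sheet versus MI), where the geometric mean of the markers gave 1. The zone difference of MI versus sham (infarct against remote) was 0 without the animal block. DESeq2 called 7, 8 and 2 members for the other zone differences, where edgeR called 0. Acaa1a turned sign in MI+Cell Sheet versus sham at the border with library size in place of TMM (0.0224).

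Leaving out 1 library gave 33 to 38, 34 to 38 and 17 to 38 members called in MI versus sham (infarct, border, remote), 0 to 0, 1 to 7 and 6 to 34 in MI+Cell Sheet versus MI, and 28 to 39, 25 to 36 and 0 to 0 in MI+Cell Sheet versus sham. On the marker scale the ranges were 8 to 9, 6 to 9 and 9 to 23 for MI versus sham and 0 to 8 (8 without MI+Cell Sheet replicate 6), 0 to 14 (14 without MI+Cell Sheet replicate 3) and 0 to 22 for MI+Cell Sheet versus MI. For the zone differences they were 17 to 30 and 0 to 8 (8 without MI replicate 5) in MI versus sham, and 0 to 6 and 0 to 0 in MI+Cell Sheet versus MI. The 38 came without sham replicate 5, and the 34, the 22 and the 6 without MI+Cell Sheet replicate 1. Among fits with a library left out, shares of all genes called are given only for those without sham replicate 5 or MI+Cell Sheet replicate 1.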

Other observations

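In the remote zone of MI+Cell Sheet versus MI, several regulators of oxidative metabolism outside the member set were higher by edgeR's test: Ppargc1b, a coactivator of mitochondrial genes (1.28 ± 0.25 on the log2 scale, adjusted p = 0.0096), Klf15, a cardiac factor for lipid use (1.16 ± 0.28, adjusted p = 0.0174), Esrrb (0.93 ± 0.24) and Esrra (0.87 ± 0.23), both oestrogen-related receptors, and Rxrg (0.97 ± 0.31). Of the 20 regulators listed, 9 were higher and 11 were not called, where 17.1% of all genes were called. Acsf2 (1.35 ± 0.29) and the ketone enzymes Bdh1 (1.23 ± 0.30) and Oxct1 (0.76 ± 0.23) were higher too, and Acot9, a thioesterase, was lower (-0.44 ± 0.11). Values of these genes scaled to the cardiomyocyte markers, or with a library left out, are not given here. At the border 9 of 66 such genes were called (13.6%, against 18% of all genes). Abcd2, a peroxisomal transporter (2.10 ± 0.55), Acaca, the carboxylase of fat synthesis (1.63 ± 0.41), Pparg, the master factor of fat cells (1.63 ± 0.41), and Pex11a, a peroxisome factor (1.27 ± 0.34), were higher there, and Dbi, the acyl-CoA-binding protein, was lower (-1.15 ± 0.19). Plin1, which coats fat droplets, was at 128, 42.6, 0, 2.07, 133 and 193 CPM in border replicates 1 to 6 of MI+Cell Sheet and at 0 to 4.38 CPM in MI. These genes were chosen for naming after their values were seen, and the part of adipocyte RNA in them was not tested.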
